A study of Mus musculus with 8 samples.

Results

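Mitochondrial ribosomal protein genes encode the proteins of the ribosome inside mitochondria, in contrast to the ribosome of the cytosol. The members were every protein-coding row of the deposited table whose gene name starts with Mrpl or Mrps followed by a digit, which gave 78 of 55450 genes. By their names and known location, 51 belong to the large subunit (the Mrpl genes with Mrps30 and Mrps18a) and 26 to the small subunit. The remaining gene, Mrps36, is named after the small subunit but is known as a component of the 2-oxoglutarate dehydrogenase complex, an enzyme of the citric acid cycle.

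The mitochondrial ribosome translates the few messenger RNAs made from mitochondrial DNA, all of which encode subunits of the respiratory chain and ATP synthase. All of its proteins are encoded in the nucleus, made in the cytosol and imported, and they assemble on ribosomal RNA made in the mitochondrion. The large subunit forms peptide bonds and passes the new chain out through an exit tunnel at the inner membrane, whereas the small subunit reads the codons. Many of its proteins descend from those of bacterial ribosomes, and others occur only in mitochondria.

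Both cell groups were sorted from orthotopic GL261 tumors, a glioma line of mice, implanted in the brain of isogenic animals, and all 8 libraries carry the genotype label WT. Microglia (3 libraries), the resident macrophages of the brain, were F4/80+ CD11b+ CD45lo with CD49d low or negative. BMDM (5 libraries), labelled as bone marrow derived macrophages, were F4/80+ CD11b+ CD45+ with CD49d high; Ly6C was low or negative and Ly6G negative in both gates. The labels give no age, do not tie a library to an animal and name no batch, so each p-value reflects only library-to-library spread, which may be technical. The series sets both cell types side by side to study how macrophages suppress immunity in the tumor.

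Library totals ran from 5890406 to 16659154 counts of 3′-end reads. Of the 8 genes fixed as microglia markers, 6 were lower in BMDM, and of the 8 monocyte-derived markers 7 were higher, as the labels would have it. Markers of other cell types also differed in level between the sorts: neutrophil markers summed to 0.890 to 9.62 CPM (counts scaled to a common library size by edgeR's TMM method) in microglia and 27.0 to 94.6 in BMDM, and T cell markers to 2.11 to 5.26 and 12.7 to 73.5 CPM, each with 1 marker called higher in BMDM. The sum over dendritic cell markers went the other way, from 116.4 to 297.2 CPM in microglia to 8.98 to 38.6 in BMDM, with 1 marker called lower. That list shares Siglech with the microglia list, and the sum does not part Siglech from the other markers. Other lists had 0 markers called and ranges that overlapped between the sorts. Red cell markers summed to 98.8 to 239.8 CPM in microglia and 25 to 161.3 in BMDM. For tumor or glial progenitor markers the sums were 59.4 to 164.8 and 19.3 to 101.7. Oligodendrocyte markers held 70.2 to 79.55 and 49.9 to 95.3 CPM, and natural killer markers 0.556 to 8.05 and 4.975 to 123.7 CPM. In none of these lists was a marker at 0 in every library. The part of these cell types in the results below was not tested. BMDM 4 and BMDM 5 stood apart from the other BMDM: Gm42418, a transcript that overlaps ribosomal RNA sequence, took 41.2% and 48.9% of their counts; its share was 34.0% to 47.1% in the microglia libraries and 14.8% to 19.8% in the other 3 BMDM libraries. The main counts, list medians and the members described in full are therefore given with all libraries and with BMDM 1 to 3 alone, a subset chosen because of how these libraries look. In that subset every BMDM library has a lower Gm42418 share than every microglia library. Differences that go with this share and those that go with cell type cannot be told apart there, and calls in the subset carry that limit. Other estimates are over all libraries.

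No mitochondrial ribosomal protein gene passed the test over all libraries. Of the 78 members 76 had enough counts to be tested, and 0 were called in either direction (edgeR quasi-likelihood test, Benjamini-Hochberg adjusted p of 0.05), where 1.93% of all 16467 genes tested were called (1.11% higher and 0.814% lower). At an unadjusted p under 0.05, 13 members were higher in BMDM (background 6.49%) and 0 lower (background 7.27%). DESeq2 called 4 members higher (Mrpl52, Mrpl14, Mrps23 and Mrpl34; background 3.74%) and limma-voom called 0 (background 0.856%). The log2 fold change was positive for 52 members and negative for 24, against 53.1% positive among all genes, and its median was 0.36, against 0.08 for all genes.

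With BMDM 1 to 3 alone, 15 of 77 members tested were called higher (background 6.35%) and 1 lower (background 8.11%). The higher members were Mrps21, Mrpl54, Mrpl52, Mrpl57, Mrpl40, Mrps14, Mrpl27, Mrpl33, Mrps12, Mrpl36, Mrpl20, Mrpl14, Mrps24, Mrps34 and Mrpl34, and the lower member was Mrpl45. The median log2 fold change of the members was 0.52 in this subset. All 15 higher members had every BMDM 1 to 3 library above every microglia library; over all members 31 were separated in that direction (background 19.6%) and 4 in the other (background 19.7%).

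**Figure D1:**
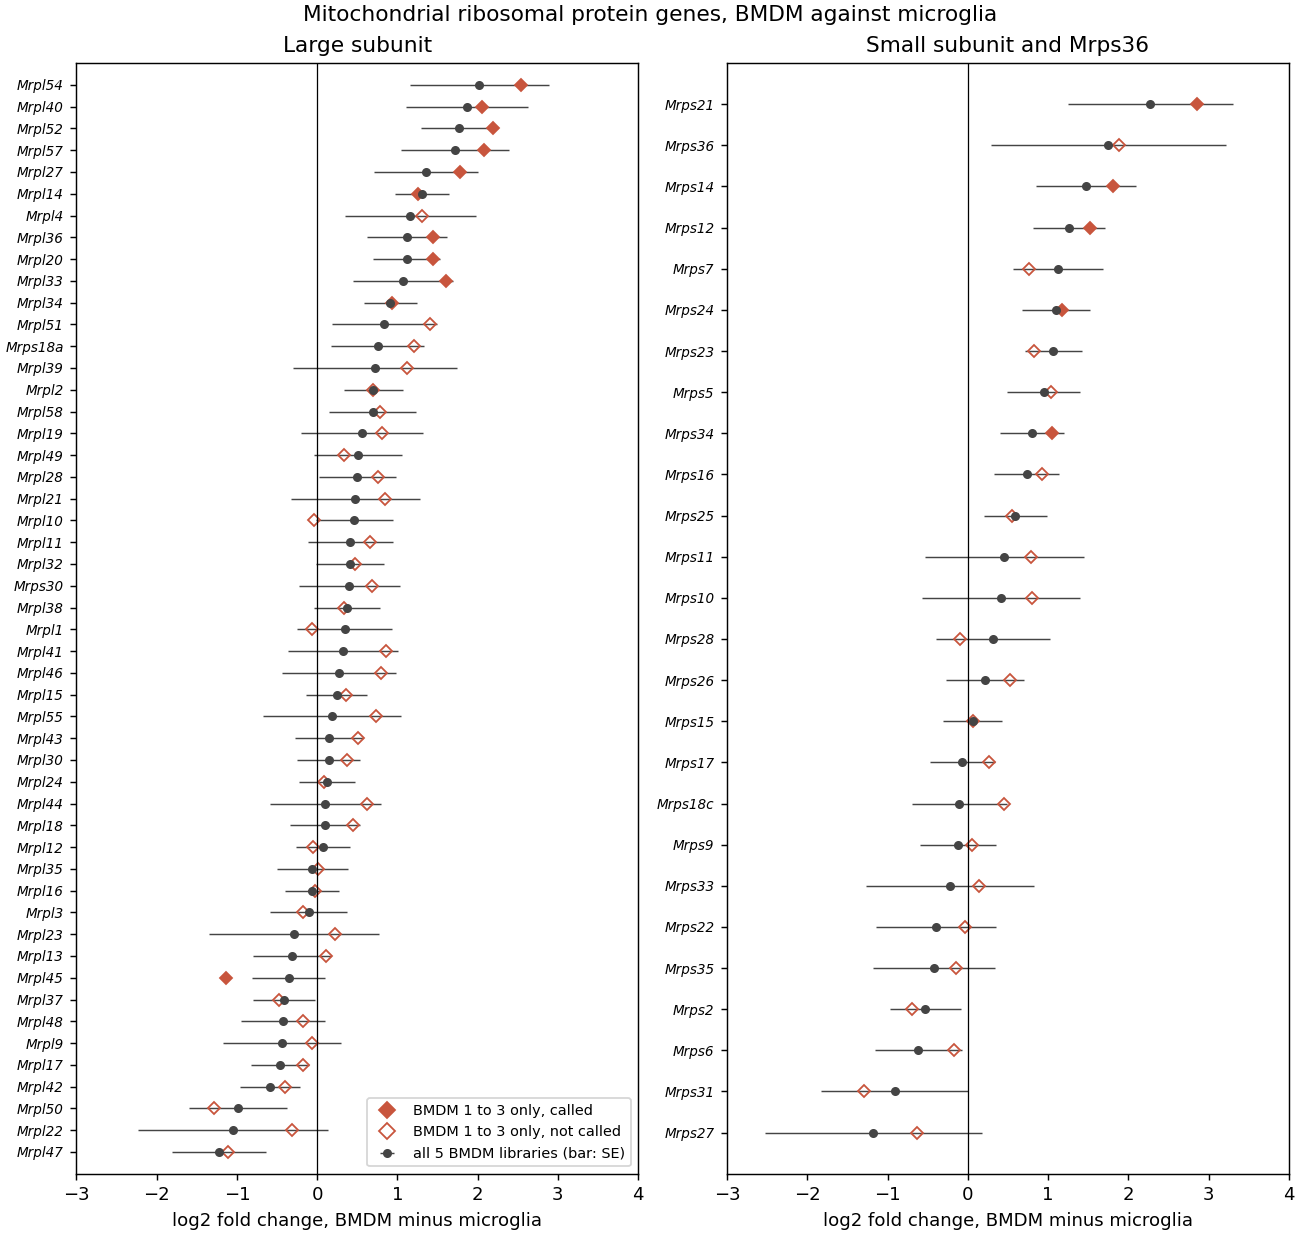
Log2 fold change of each tested member, BMDM minus microglia, for the large subunit (left) and the small subunit with Mrps36 (right). Dots with bars give the estimate over all 8 libraries and its SE, and diamonds the estimate with BMDM 1 to 3 only, filled where the adjusted p was under 0.05; estimates run from -1.22 for Mrpl47 to 2.28 for Mrps21, and most filled diamonds lie to the right of their dots.

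The level of the members varied among the BMDM libraries as well as between the cell types. Their mean log2 CPM was 3.93, 3.88 and 3.59 in the 3 microglia libraries. BMDM 1 to 3 had 4.32, 4.57 and 4.17, BMDM 4 had 3.51 and BMDM 5 had 3.13. On this mean BMDM 1 to 3 lay above all 3 microglia libraries, and BMDM 4 and 5 below all of them. On the members' median log2 CPM, BMDM 4 (3.96) and BMDM 5 (3.84) fell within the microglia range of 3.71 to 3.99. The members' summed CPM was 1525 in BMDM 4 and 1403 in BMDM 5. It was 1164 to 1404 in microglia and 2043 to 2460 in BMDM 1 to 3. BMDM 2 held the highest of the 8 values for 23 members, whereas BMDM 5 held the lowest for 26 and BMDM 4 for 20. As a share of all counts, the members made up 0.0919% to 0.160% in microglia and 0.239% to 0.283% in BMDM 1 to 3. The share was 0.128% in BMDM 4 and 0.111% in BMDM 5. All counts include Gm42418, whose own share differed among the libraries. With ribosomal RNA left out of the totals, the gap was smaller. The members then held 1801 to 2594 CPM, without TMM scaling, in microglia and 2972 to 3833 in BMDM 1 to 3. On that measure BMDM 4 (2307) and BMDM 5 (2242) lay within the microglia range.

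The order of the mean levels did not hold against the other genes of each library. The members' median log2 CPM exceeded the median of all tested genes by 0.98, 0.91 and 0.86 in microglia 1 to 3. For BMDM 1 to 5 the excess came to 1.33, 1.57, 1.31, 1.21 and 1.03. On this measure all 5 BMDM libraries lay above all 3 microglia libraries. On means in place of medians the excess was 0.84 to 0.92 in microglia and 1.19, 1.46, 1.21, 1.38 and 0.78 in BMDM 1 to 5, so that BMDM 5 fell below microglia.

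In BMDM 4 and 5 single members were close to 0 while others were not. Under 10 counts were found for 8 of the 76 members in BMDM 4 and 13 in BMDM 5, against 1 in microglia 3 (Mrps36) and 0 in the remaining libraries. Among the 59 members with a mean level of 10 to 100 CPM, 3 (5.09%) had fewer than 10 counts in BMDM 4 and 5 (8.48%) in BMDM 5; the shares of all 6303 genes in that range were 4.08% and 3.28%. In BMDM 5, Mrpl23 had 0 counts, which allows up to 0.415 CPM as counting error alone, although its other BMDM libraries held 2.97 to 11.7 CPM. In that library Mrpl14, Mrps23, Mrpl10, Mrpl45 and Mrps7 each reached their highest value of all 8 libraries. In bulk libraries, fewer cells of a kind and less RNA per cell cannot be told apart.

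**Figure D2:**
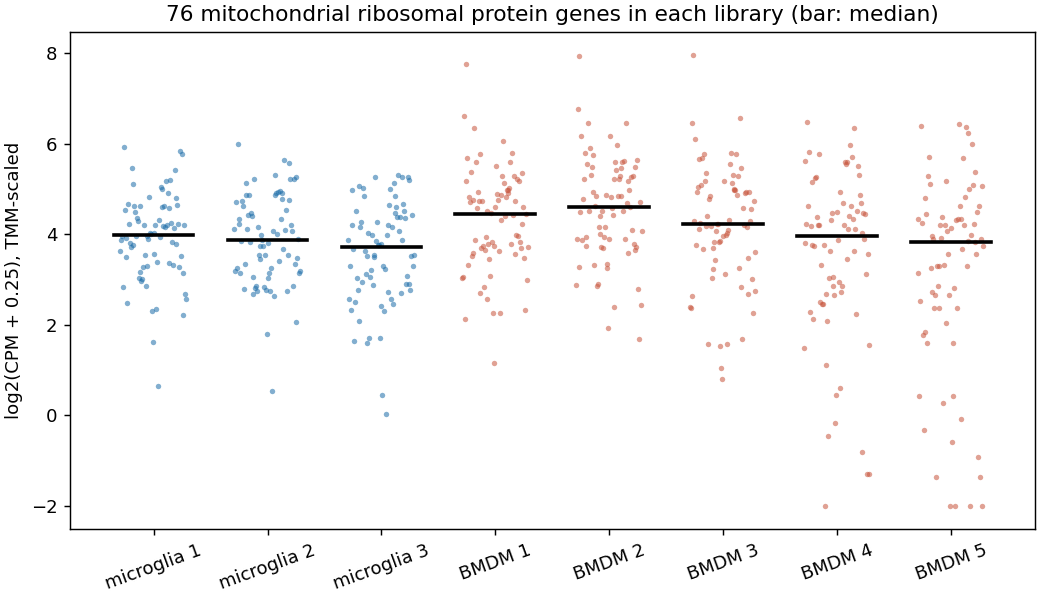
Level of the 76 tested members in each library, as log2 of TMM-scaled CPM plus 0.25; each point is 1 gene and the bar is the median. The clouds of BMDM 1 to 3 sit higher than those of microglia, and BMDM 4 and BMDM 5 have long lower tails formed by members with few or 0 counts.

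Among large-subunit members, Mrpl14 separated the groups most evenly. Mrpl14 encodes a bacterial-type protein at the face that meets the small subunit, which the assembly factor Malsu1 binds. It measured 24.0, 29.0 and 24.8 CPM in microglia 1 to 3 and 66.8, 62.7, 55.5, 48.2 and 86.8 CPM in BMDM 1 to 5. Every BMDM library was above every microglia library. The difference was 2.47-fold (log2 1.30, SE 0.34), with an unadjusted p of 0.0016 and an edgeR adjusted p of 0.068 over all libraries and 0.0081 with BMDM 1 to 3. Its adjusted p was under 0.05 in 9 of the 18 other fits, the most of any member.

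Mrpl52, a large-subunit protein specific to mitochondria, separated the groups with a wider spread. It measured 60.9, 63.9 and 31.2 CPM in microglia and 217.6, 244.9, 250.3, 89.5 and 83.5 CPM in BMDM 1 to 5. The groups did not overlap, but BMDM 4 and 5 lay far below BMDM 1 to 3. The fold was 3.41 (log2 1.77, SE 0.48; edgeR adjusted p 0.083) over all libraries and 4.58 with BMDM 1 to 3 (log2 2.20; edgeR adjusted p 0.0022).

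Mrpl34, Mrpl2 and Mrps23 completed the 5 of 76 tested members whose BMDM libraries all lay above microglia (background 4.32%). A share of 5 in 76 is close to that background and is no result about the members as a set. Mrpl34, a small bacterial-type protein, measured 36.8, 49.6 and 39.7 CPM in microglia and 55.4, 88.2, 94.7, 81.2 and 75.9 CPM in BMDM (log2 0.91, SE 0.33; edgeR adjusted p 0.20). Mrpl2, a core bacterial-type protein, measured 13.6, 27.1 and 25.4 CPM in microglia and 37.2, 38.3, 30.1, 39.3 and 33.7 CPM in BMDM (log2 0.70, SE 0.36; edgeR adjusted p 0.43). Mrps23, of the small subunit, measured 23.9, 29.8 and 24.3 CPM in microglia and 48.6, 49.4, 39.1, 52.1 and 82.2 CPM in BMDM (log2 1.06, SE 0.35; edgeR adjusted p 0.16). None of these 3 passed edgeR's adjusted threshold over all libraries, where DESeq2 called Mrpl34 and Mrps23 (DESeq2 adjusted p 0.031 for both). With BMDM 1 to 3 edgeR called Mrpl34 of the 3 (edgeR adjusted p 0.047).

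**Figure D3:**
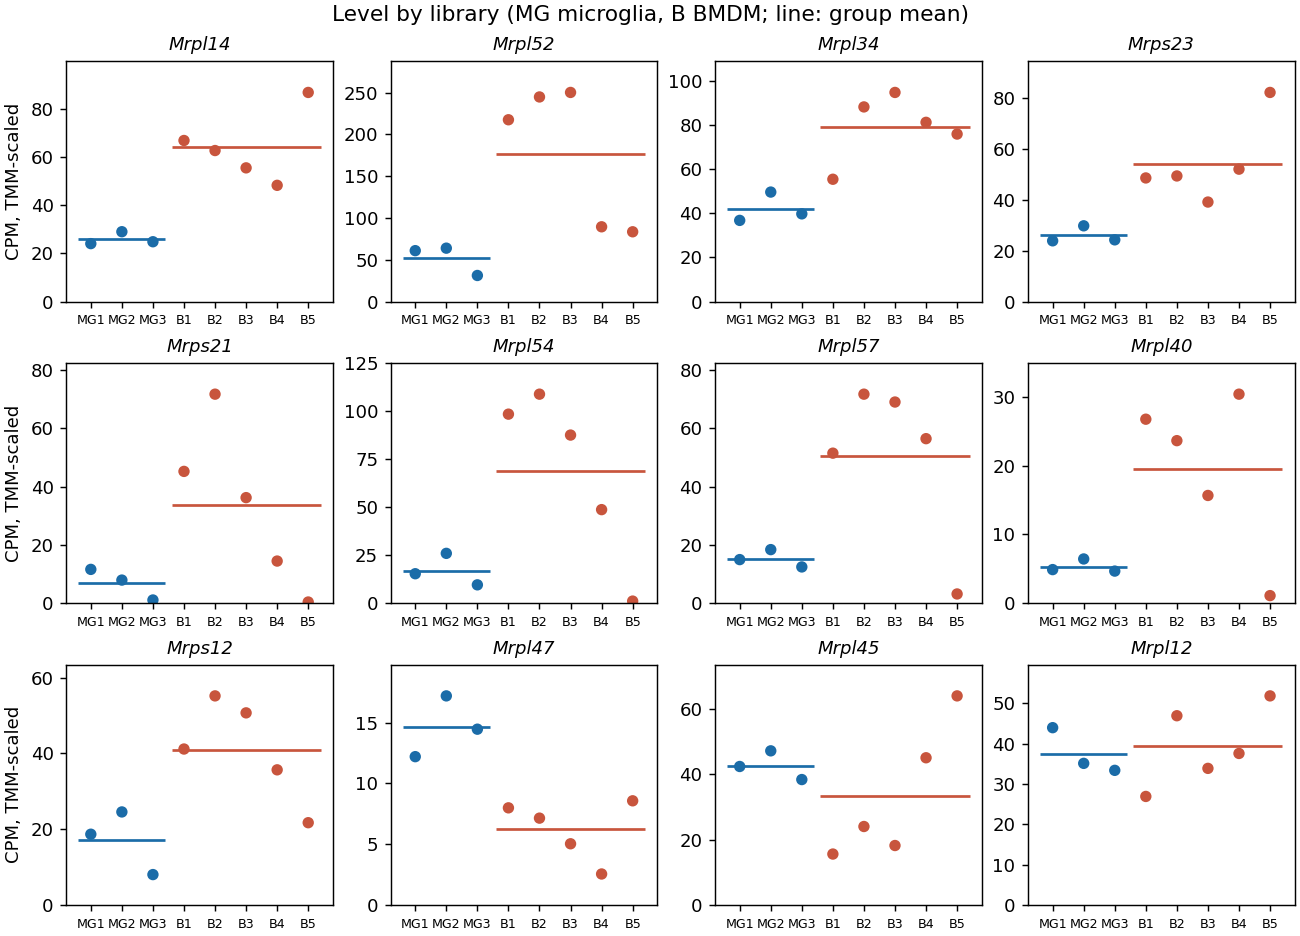
TMM-scaled CPM of 12 members in each library, on linear axes that start at 0; MG1 to MG3 are microglia, B1 to B5 are BMDM, and lines are group means. The BMDM points of Mrpl14, Mrpl52, Mrpl34 and Mrps23 all lie above microglia, those of Mrpl47 all lie below, Mrps21, Mrpl54, Mrpl57 and Mrpl40 fall almost to 0 in BMDM 5, and Mrpl45 has its highest points in BMDM 4 and 5 and among microglia.

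The 3 largest estimates, those of Mrps21, Mrpl54 and Mrpl40, belonged to members with few counts in BMDM 5. Mrps21, a bacterial-type protein of the small subunit, measured 11.6, 7.95 and 1.11 CPM in microglia and 45.3, 71.8, 36.3, 14.5 and 0.415 CPM in BMDM 1 to 5. BMDM 1 to 4 lay above microglia and BMDM 5, with 3 counts, below. Its log2 fold change was 2.28 (SE 1.03; edgeR adjusted p 0.34) over all libraries and 2.86 with BMDM 1 to 3 (edgeR adjusted p 0.013), the largest of any member in both.

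Mrpl54, specific to mitochondria, measured 15.4, 26.0 and 9.57 CPM in microglia and 98.4, 108.8, 87.5, 48.7 and 1.11 CPM in BMDM (log2 2.02, SE 0.86; edgeR adjusted p 0.31). Mrpl57, also specific to mitochondria, measured 14.98, 18.4 and 12.5 CPM in microglia and 51.5, 71.8, 69.1, 56.5 and 3.18 CPM in BMDM (log2 1.72, SE 0.68; edgeR adjusted p 0.25). Mrpl40, a protein of the central protuberance at the top of the large subunit, measured 4.89, 6.44 and 4.67 CPM in microglia and 26.8, 23.6, 15.7, 30.4 and 1.11 CPM in BMDM (log2 1.87, SE 0.76; edgeR adjusted p 0.27). In all 3 genes the first 4 BMDM libraries lay above microglia and BMDM 5 below. With BMDM 1 to 3 their log2 fold changes were 2.54, 2.08 and 2.06, with edgeR adjusted p-values of 0.0020, 0.0017 and 0.0065.

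Promoter windows are shown for Mrps21 (the largest estimate), Mrpl52 (groups that did not overlap), Mrpl14 (the most even difference) and Mrpl45, which went the other way. RefSeq's GRCm38.p6 table, covering 250 bases before to 50 after each start, held 69 of the 78 members. Mrpl54 has no window there. Mrpl40, with a larger estimate than Mrpl52, has a window without any match, which is not printed. Capitals mark matches, on either strand, to motifs of factors known to act on nuclear genes for mitochondria: GCGC and TGCGC parted by 1 base of any kind for NRF1, CCGGAAG for the ETS family that includes GABP, and AAGGTCA for the estrogen-related receptors (ERR). The windows lie at chr3:95871465-95871764 (minus strand, Mrps21), chr14:54426659-54426958 (plus, Mrpl52), chr17:45686099-45686398 (plus, Mrpl14) and chr11:97315466-97315765 (plus, Mrpl45), each printed 5′ to 3′ along its gene. In the GENCODE M21 annotation of the same build these genes span chr3:95862634-95871519, chr14:54426909-54429756, chr17:45686322-45698495 and chr11:97315716-97329920.
Mrps21: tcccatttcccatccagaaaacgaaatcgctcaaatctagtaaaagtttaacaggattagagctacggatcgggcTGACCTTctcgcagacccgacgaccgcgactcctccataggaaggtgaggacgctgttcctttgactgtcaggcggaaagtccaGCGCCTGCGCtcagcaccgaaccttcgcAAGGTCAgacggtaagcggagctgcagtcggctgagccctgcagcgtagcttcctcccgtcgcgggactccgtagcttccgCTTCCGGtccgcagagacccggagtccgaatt
Mrpl52: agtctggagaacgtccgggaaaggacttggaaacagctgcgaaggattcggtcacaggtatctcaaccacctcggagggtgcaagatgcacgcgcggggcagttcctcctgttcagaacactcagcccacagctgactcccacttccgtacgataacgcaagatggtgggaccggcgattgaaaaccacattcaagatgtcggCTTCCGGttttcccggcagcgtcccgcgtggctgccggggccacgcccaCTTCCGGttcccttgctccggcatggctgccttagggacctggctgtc
Mrpl14: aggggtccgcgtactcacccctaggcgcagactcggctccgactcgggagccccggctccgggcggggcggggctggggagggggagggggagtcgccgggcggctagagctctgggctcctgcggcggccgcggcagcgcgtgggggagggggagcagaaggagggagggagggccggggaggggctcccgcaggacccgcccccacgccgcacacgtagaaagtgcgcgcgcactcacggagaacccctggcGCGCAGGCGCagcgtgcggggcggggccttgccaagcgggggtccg
Mrpl45: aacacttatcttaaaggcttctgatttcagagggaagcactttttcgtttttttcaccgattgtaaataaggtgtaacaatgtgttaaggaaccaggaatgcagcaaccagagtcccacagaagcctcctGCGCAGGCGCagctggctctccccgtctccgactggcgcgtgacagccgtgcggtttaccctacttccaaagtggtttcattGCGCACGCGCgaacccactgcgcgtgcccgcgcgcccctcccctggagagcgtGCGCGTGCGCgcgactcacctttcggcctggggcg

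The window of Mrps21 held an NRF1 match, 2 ERR matches and 1 ETS match, and the Mrpl52 window 2 ETS matches, 1 of them just past the start. The Mrpl14 window held 1 NRF1 match, and that of Mrpl45 held 3. Of the 69 members, 3 (Mrpl2, Mrpl48 and Mrps16) have more than 1 window, and any gene was counted when at least 1 of its windows held the letters. The ETS letters were found for 26 members (37.7%, against 19.5% of 10006 tested protein-coding genes with a window) and the NRF1 letters for 13 (18.8% against 11.1%). The 69 members include the untested Mrps18b and Mrpl53, each with an ETS match, whereas the background holds tested genes only. The YY1 letters AAGATGGCG were found for 8 (11.6% against 3.44%), the E-box CACGTG for 5 (7.25% against 11.5%) and the ERR letters for 4 (5.80% against 3.83%). At least 1 of these motifs was found for 44 of the 69 members (63.8% against 40.1%). Motifs were searched on both strands; in the Mrpl36 window the E-box and ERR letters overlap. A match is a description of the sequence, since binding was not measured here.

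Several other bacterial-type proteins of the large subunit are described next. Mrpl27 measured 5.31, 14.3 and 5.45 CPM in microglia and 27.96, 27.5, 30.2, 17.8 and 3.32 CPM in BMDM (log2 1.36, SE 0.65; edgeR adjusted p 0.38; 0.018 with BMDM 1 to 3). Mrpl16 was level, at 29.8, 27.4 and 28.7 CPM in microglia and 32.5, 22.5, 28.9, 24.7 and 28.1 CPM in BMDM (log2 -0.07, SE 0.33). The short bacterial-type genes Mrpl20, Mrpl33 and Mrpl36 had log2 fold changes of 1.11 (SE 0.42), 1.07 (SE 0.63) and 1.12 (SE 0.50), and each was called with BMDM 1 to 3 (edgeR adjusted p 0.016, 0.023 and 0.042) but not over all libraries. Mrpl4, another bacterial-type protein, reached 48.6 CPM in BMDM 4 and 0.691 CPM in BMDM 5, where it had 5 counts; its log2 fold change was 1.16 with an SE of 0.81.

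Proteins of the stalk, which recruits translation factors, showed no difference beyond their spread. Mrpl12 measured 44.0, 35.1 and 33.4 CPM in microglia and 26.9, 46.9, 33.9, 37.6 and 51.8 CPM in BMDM, with overlapping groups (log2 0.07, SE 0.34; edgeR adjusted p 0.97). The log2 fold changes of Mrpl10 and Mrpl11 were 0.46 (SE 0.48) and 0.41 (SE 0.53). Mrpl10 differed in its pattern, with its lowest value, 8.26 CPM, in BMDM 1 and its highest, 36.2 CPM, in BMDM 5, whereas microglia held 14.2 to 14.8 CPM.

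Around the exit tunnel, Mrpl45 was the single member called lower with BMDM 1 to 3. Mrpl45 anchors the ribosome to the inner membrane. It measured 42.4, 47.2 and 38.4 CPM in microglia and 15.6, 24.0, 18.2, 45.1 and 64.0 CPM in BMDM 1 to 5. BMDM 1 to 3 lay below all microglia, BMDM 4 within their range and BMDM 5 above it. The log2 fold change was -1.13 with BMDM 1 to 3 (edgeR adjusted p 0.024) and -0.36 over all libraries (SE 0.45; edgeR adjusted p 0.84). Of its neighbours at the tunnel, Mrpl24 was level (log2 0.12, SE 0.34), and Mrpl22 and Mrpl23 had estimates of -1.05 (SE 1.19) and -0.29 (SE 1.06), each with 0 counts in BMDM 5.

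Of the proteins listed beforehand for the central protuberance, those other than Mrpl40 (Mrpl38, Mrpl46, Mrpl48 and Mrpl58) did not pass either test. Estimates were 0.38 (SE 0.41) for Mrpl38, 0.27 (SE 0.71) for Mrpl46 and -0.42 (SE 0.52) for Mrpl48. Mrpl58, which also releases stalled chains from the ribosome, had an estimate of 0.69 (SE 0.54) over all libraries and 0.79 with BMDM 1 to 3 (edgeR adjusted p 0.21).

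Mrpl47, of the large subunit, was the single member with every BMDM library below every microglia library (background 8.66%). It measured 12.2, 17.2 and 14.5 CPM in microglia and 7.99, 7.14, 5.03, 2.55 and 8.57 CPM in BMDM. The log2 fold change was -1.22 (SE 0.59; edgeR adjusted p 0.38), the lowest of the members, and -1.11 with BMDM 1 to 3 (edgeR adjusted p 0.096). Among other large-subunit members with negative estimates, Mrpl50 stood at -0.99 (SE 0.62), Mrpl42 at -0.59 (SE 0.38) and Mrpl17 at -0.46 (SE 0.37), none of which passed either test. The large-subunit members not named so far had estimates from -0.44 (Mrpl9) to 0.83 (Mrpl51), and none was called in either fit. Of these, Mrpl3 stood at -0.10 (SE 0.48), Mrpl28 at 0.50 (SE 0.48), Mrpl37 at -0.41 (SE 0.39), Mrpl41 at 0.33 (SE 0.69) and Mrpl44, which carries an RNase III-like fold, at 0.10 (SE 0.69).

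In the small subunit, Mrps12 and Mrps14 were among those called with BMDM 1 to 3. Mrps12 lies at the decoding centre, where its bacterial counterpart guards accuracy; it measured 18.7, 24.5 and 8.01 CPM in microglia and 41.1, 55.2, 50.7, 35.7 and 21.7 CPM in BMDM. BMDM 5 alone overlapped microglia, and the log2 fold change was 1.26 (SE 0.45; edgeR adjusted p 0.20), or 1.52 with BMDM 1 to 3 (edgeR adjusted p 0.025). Mrps14 measured 15.1, 5.93 and 6.34 CPM in microglia and 28.9, 48.5, 19.6, 25.6 and 4.98 CPM in BMDM (log2 1.47, SE 0.62; edgeR adjusted p 0.30; 0.026 with BMDM 1 to 3). Mrps24 and Mrps34 had estimates of 1.10 (SE 0.42) and 0.80 (SE 0.40), and 1.17 and 1.05 with BMDM 1 to 3 (edgeR adjusted p 0.022 and 0.035). The 3′ region of Mrps34 is less certain, since 37% of its exon bases overlap Nme3 on the same strand and 63.4% overlap Mapk8ip3 on the other.

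The other small-subunit proteins with a listed role did not pass edgeR's test in either fit. Mrps5 and Mrps16 had estimates of 0.95 (SE 0.45) and 0.73 (SE 0.40), and 1.03 and 0.92 with BMDM 1 to 3 (edgeR adjusted p 0.062 and 0.073). Mrps15 was level at 0.06 (SE 0.37), Mrps26 stood at 0.22 (SE 0.49), Mrps11 at 0.45 (SE 0.99) and Mrps22 at -0.40 (SE 0.75). Mrps2 measured 15.5, 15.5 and 38.2 CPM in microglia and 10.7, 12.7, 18.4, 19.7 and 18.2 CPM in BMDM, so its estimate of -0.53 (SE 0.44) came with 1 high microglia library. Mrps27, an RNA-binding protein of the pentatricopeptide type, had the lowest small-subunit estimate, -1.18 (SE 1.35), at 5.12 CPM or less in every library; Mrps31 stood at -0.91 (SE 0.92) and Mrps6 at -0.62 (SE 0.54). The other small-subunit members ran from -0.43 (Mrps35) to 1.12 (Mrps7), and none was called in either fit.

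The subunits were also summarised apart. The median log2 fold change was 0.36 over 50 large-subunit members and 0.31 over 25 small-subunit members, and 36 and 15 of them were positive; with BMDM 1 to 3 the medians were 0.56 and 0.48. The summed CPM of the large subunit was 2.17 to 2.69 times that of the small subunit in microglia and 2.17 to 2.85 times in BMDM, ranges that overlap. By number, members up to Mrpl36 and Mrps21, mostly those with bacterial counterparts, had a median of 0.41 (43 genes) and the others 0.31 (33 genes), or 0.46 and 0.55 with BMDM 1 to 3.

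The 3 paralogs of Mrps18 had estimates of different size. Mrps18a, which sits in the large subunit, measured 8.73, 8.15 and 11.2 CPM in microglia and 12.7, 24.4, 27.1, 5.25 and 9.67 CPM in BMDM (log2 0.76, SE 0.58; 1.21 with BMDM 1 to 3, edgeR adjusted p 0.058). Mrps18c had an estimate of -0.11 (SE 0.59). Mrps18b did not pass the count filter, with 21, 8 and 3 counts in microglia and 11, 8, 0, 0 and 0 in BMDM 1 to 5. Mrps30 stood at 0.40 (SE 0.63).

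Mrps36 had an estimate of 1.75 with an SE of 1.46, from 0.779 to 1.31 CPM in microglia and 0 to 6.37 CPM in BMDM, and BMDM 5 held 0 counts. Mrpl53, the other untested member, had 0 counts in every library; 88% of its exon bases overlap the gene model Gm42688 on the same strand. Processed pseudogenes drew few counts: Mrpl23-ps1 had 160 over all libraries, Mrpl48-ps 33 and Mrps36-ps3 18, all in BMDM 2. Exons of 9 members overlap another gene over more than 20% of their bases, among them Mrps25 with Nr2c2 (69.8%), Mrpl19 with Gcfc2 (36%), Mrpl43 with Twnk (33.4%) and Mrpl24 with Rrnad1 (26.3%), all on the other strand, and the sources used here do not give whether counting used strand.

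Short transcripts carried most of the calls made with BMDM 1 to 3. Of the 15 higher members 12 had transcripts of up to 1000 nt (median 717 nt), against 16 of the other 61 (median 1411 nt). The same gradient ran through other protein-coding genes, whose median log2 fold change over all libraries was 1.12 for transcripts up to 600 nt, 0.50 above 600 and up to 1000 nt, 0.13 up to 2000 nt, -0.07 up to 3000 nt and -0.23 above 3000 nt. The members' medians in those classes were 1.44 (4 genes), 0.40 (24), 0.20 (28), 0.69 (7) and 0.34 (13). With BMDM 1 to 3 the medians were 1.36, 0.71, 0.18, -0.11 and -0.34 for other genes and 1.90, 0.79, 0.35, 0.79 and 0.48 for the members. In both fits the members' medians exceeded those of other genes most in the 2 classes above 2000 nt, although single members there, such as Mrpl47 (-1.22) and Mrpl50 (-0.99), lay below the medians of other long genes. Across the 76 members, which are not independent replicates, Spearman's rho between transcript length and log2 fold change was -0.25, and -0.20 across 12636 other genes; with BMDM 1 to 3 it was -0.35 across members and -0.23 across 12434 other genes. Members are short in general, with a median transcript of 1228 nt against 2763 nt, and the part of length in these differences was not tested.

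The libraries that were low for the short members were low for other short genes too. Relative to each gene's mean over the libraries, members up to 600 nt stood at -1.65 (log2) in microglia 3 and -1.05 in BMDM 5, and at 1.08 to 1.32 in BMDM 1 to 3. Other genes of that length stood at -0.95, -1.13 and 0.74 to 1.11. Mrps21, Mrpl33, Mrpl20 and Mrpl52, the 4 members of the class, each had their lowest microglia value in microglia 3.

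**Figure D4:**
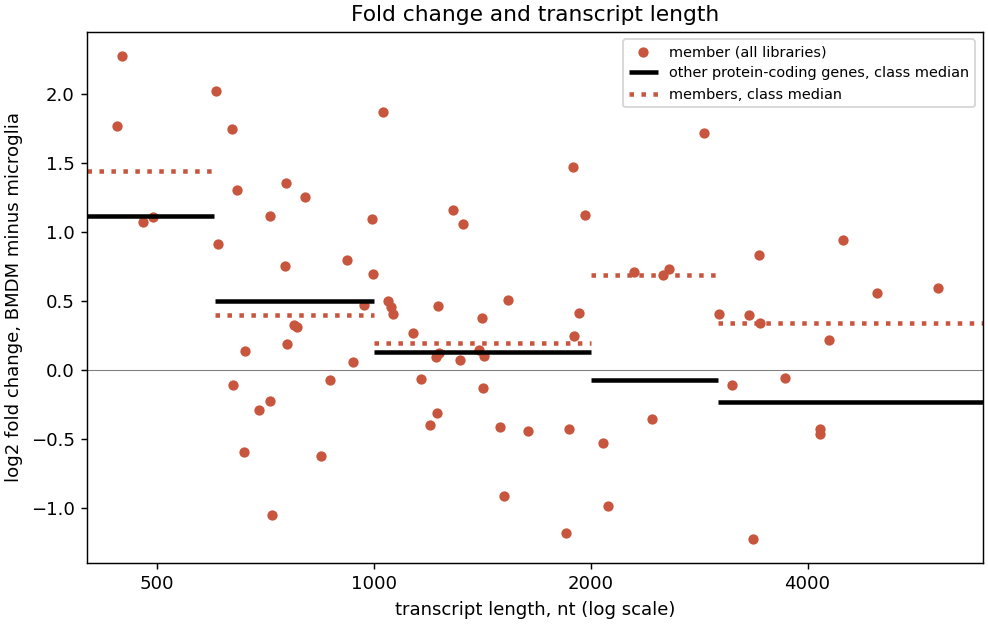
Log2 fold change over all libraries, BMDM minus microglia, against transcript length (log axis) for each tested member. Solid lines are class medians of other protein-coding genes and dotted lines those of the members: solid lines fall from 1.12 to -0.23 with length, and the members' medians lie above them by more than 0.5 in the classes over 2000 nt.

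Head to head meant starts within 1000 bases on opposite strands, pointing apart and without overlap. Pairs with overlapping 5′ ends, such as Mrps11 and Mrpl46, were therefore not counted. By this rule members lay head to head with another protein-coding gene in 17 of 76 tested cases (22.4%), against 9.82% of 12712 tested protein-coding genes. Mrps12 shares such a region with Sars2, the mitochondrial seryl-tRNA synthetase, 172 bases apart; their log2 fold changes were 1.26 and 0.11. Mrpl49 and Fau, which encodes a cytosolic ribosomal protein, lie 59 bases apart, with 0.51 and 1.24. Mrpl54 and Apba3 lie 26 bases apart with 2.02 and -0.07, Mrpl57 and Ska3 49 bases apart with 1.72 and 0.09, and Mrpl40 and Hira 175 bases apart with 1.87 and 0.70. Over the 15 pairs with both genes tested, 12 had estimates of the same sign, and the medians were 0.70 for members and 0.21 for partners. In the last 3 pairs named, and in Mrps12 with Sars2, the member stood more than 1 log2 unit above its partner. The last 3 pairs were chosen after their values were seen.

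Other parts of mitochondrial gene expression were taken as lists, with calls by edgeR unless another tool is named, to be read against 1.93% of all genes called over all libraries and, with BMDM 1 to 3, 6.35% called higher and 8.11% lower. Among 5 further mitoribosome proteins, 0 were called over all libraries (median 0.36) and 2 were higher with BMDM 1 to 3: Gadd45gip1 (log2 1.77, edgeR adjusted p 0.010) and Aurkaip1 (0.91, edgeR adjusted p 0.044). Of 29 assembly factors 0 were called (median 0.18) and 2 were higher with BMDM 1 to 3, among them Malsu1, the partner of Mrpl14 (1.30, edgeR adjusted p 0.016); the median of this list there was -0.22. A share of 2 in 29, like 1 in 18 and 1 in 19 in the next lists, is close to that background and is no result about the list. Of 18 translation factors 0 were called (median -0.09), and with BMDM 1 to 3 the messenger RNA stabiliser Slirp was higher (1.62, edgeR adjusted p 0.034). Of 19 aminoacyl-tRNA synthetases 0 were called (median 0.01; DESeq2 called 1 higher) and Lars2 was higher with BMDM 1 to 3 (1.90, edgeR adjusted p 0.028). Of 19 genes for mitochondrial DNA replication and transcription 0 were called (median -0.33) and Polg, the DNA polymerase, was lower with BMDM 1 to 3 (-1.65, edgeR adjusted p 0.0074). Of 13 mitochondrially encoded messenger RNAs, the templates of this ribosome, only 8 had enough counts to be tested, and 0 of these were called in either fit. Their median was -0.03 over all libraries, with 4 of 8 positive, and 0.35 with BMDM 1 to 3, with 7 of 8 positive. The values do not cover the templates left untested.

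Nuclear oxidative phosphorylation genes and cytosolic ribosomal proteins had higher medians than the members, and regulators of mitochondrial biogenesis had a lower one. Of 80 nuclear genes for oxidative phosphorylation edgeR called 1 and DESeq2 16 over all libraries; the edgeR call was Ndufb7 of complex I (log2 1.78, SE 0.35, edgeR adjusted p 0.017), with a median of 1.04 for the list. With BMDM 1 to 3, 52 of 79 were higher (background 6.35%), with a median of 1.37. Of 84 cytosolic ribosomal proteins edgeR called 0 and DESeq2 11 over all libraries (median 0.77), and with BMDM 1 to 3 edgeR called 45 higher and 1 lower (median 1.17; background 6.35% and 8.11%). Whether these medians differ from that of the members was not tested. Of 11 regulators of mitochondrial biogenesis edgeR called 0 over all libraries (median -0.25), DESeq2 and limma-voom each called 1 lower, and with BMDM 1 to 3 edgeR called 3 lower (background 8.11%), among them Myc (-2.98, edgeR adjusted p 0.0023) and Gabpa, a subunit of the ETS factor GABP (-1.63, edgeR adjusted p 0.017).

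**Figure D5:**
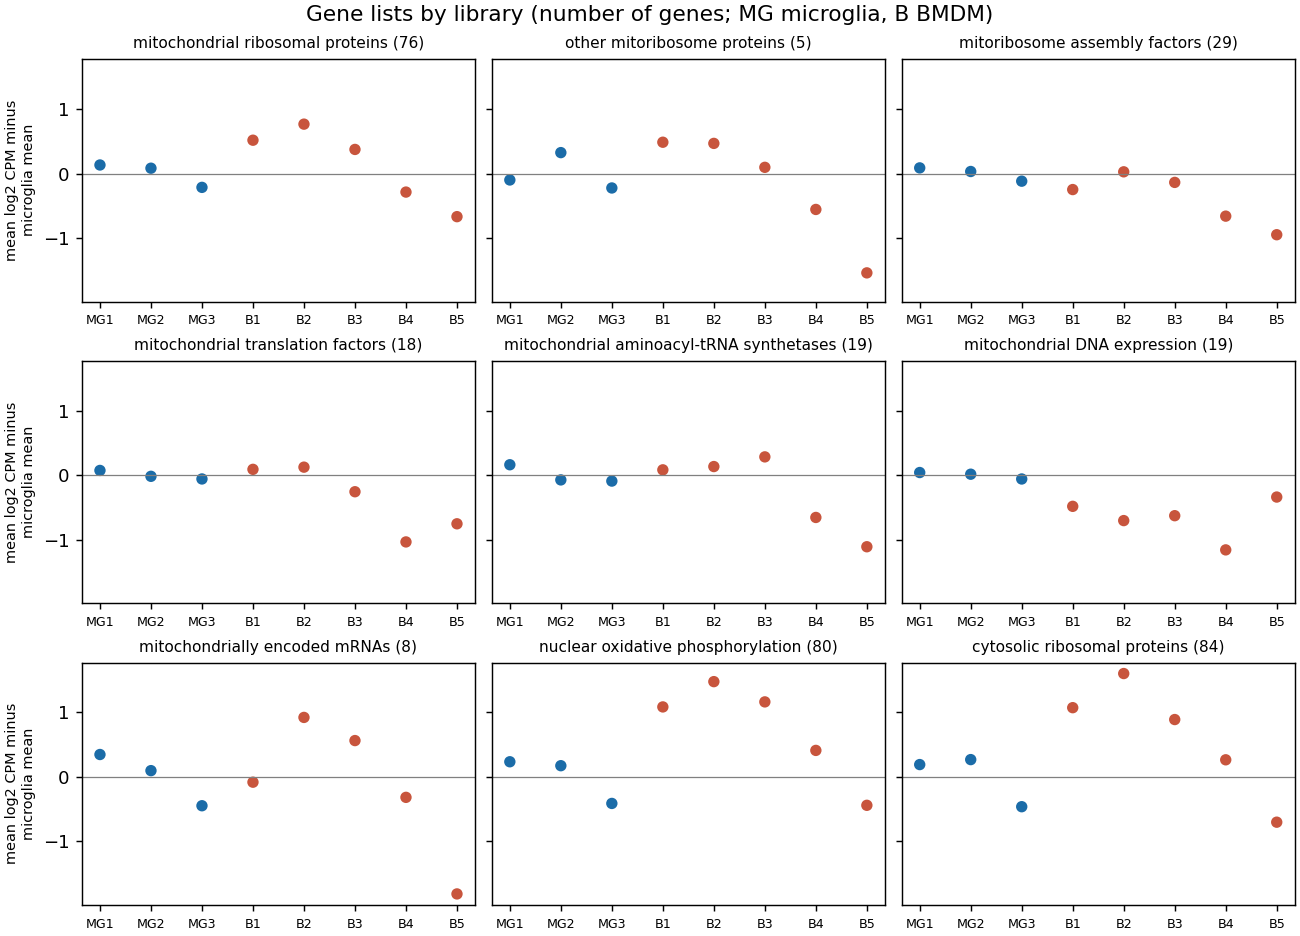
Mean log2 CPM of each gene list in each library, minus the mean over the 3 microglia libraries, with the number of genes in brackets (MG1 to MG3 microglia, B1 to B5 BMDM). The mitochondrial ribosomal proteins lie above 0 in B1 to B3 and below in B4 and B5, the nuclear oxidative phosphorylation and cytosolic ribosomal lists lie higher still in B1 to B3, and mitochondrial DNA expression lies below 0 in all 5 BMDM libraries.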

How the data were processed

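RNA from sorted cells was made into QuantSeq 3′ FWD libraries and sequenced as single reads, per the labels' protocols. The authors deposited raw read counts per gene; STAR, featureCounts, cutadapt, FastQC, DESeq2 and mm10 are named, without versions or strand setting, per the submitters' processing notes. Counts of this kind follow transcripts, not length. Levels of different genes are not ranked here. Of 55450 genes, 16467 passed filterByExpr (minimum count 10, minimum total 15). They were fitted in edgeR 4.0.16 (R 4.3.3) with TMM factors and a robust quasi-likelihood test, BMDM minus microglia, all 8 libraries, and Benjamini-Hochberg adjustment over all genes tested; SE came from the F statistic. The script was tested on simulated data. Log2 CPM used a prior count of 2. Alternatives used DESeq2 1.42.0 and limma 3.58.1 (voom, with and without quality weights), RLE factors, library totals, other filters, Gm42418 and mitochondrial rRNA left out, BMDM 1 to 3 only, a replicate block and each library left out; other length measures were added after seeing the data. Positions and lengths came from GENCODE M21 (GRCm38). No 2 libraries of a group agreed within sampling noise. Intervals for 0 counts (3 counts) cover counting error only. The members and lists were chosen with earlier results of these data known. Named were the 10 largest, 10 smallest and 10 lowest-p members of at least 10 CPM, untested members, members with a listed role, and called or extreme genes of each list; others were chosen after their values were seen.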

Additional observations from a re-analysis of the deposited data

Results flagged for a closer look

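Among the 53 members examined for a BMDM library far from the other 4, by its gap to the nearest of them relative to the whole range, 3 had one; chance alone gives about 1 in 20 groups. Mrpl42 measured 49.75 CPM in BMDM 2 and 21.5 to 24.3 CPM in the others. Mrps35 measured 0.3183 CPM in BMDM 4, from 2 counts, and 11.0 to 14.0 CPM in the others. Mrps7 measured 39.11 CPM in BMDM 5 and 11.7 to 18.9 CPM in the others.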

How the results depend on the processing

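Counts below are genes called higher in BMDM unless said to be lower, with edgeR's adjusted p where no other tool is named; the cause of each shift was not tested. DESeq2 called 601 genes higher and 313 lower, among them 4 members, 1 aminoacyl-tRNA synthetase, 16 oxidative phosphorylation genes, 11 cytosolic ribosomal proteins and, lower, 1 biogenesis regulator. Without the low-count filter there were 403 higher and 318 lower, with 2 members, 1 synthetase, 15 oxidative phosphorylation genes, 14 cytosolic ribosomal proteins and, lower, 1 regulator. RLE factors, leaving out Gm42418 with mitochondrial rRNA, and a filter of 10 CPM in 3 libraries each called 1 member, Mrpl14; the last also called 2 oxidative phosphorylation genes and gave the assembly factors a median of 0.73. Limma-voom called 250 genes lower and 0 members, with 2 oxidative phosphorylation genes higher and 1 regulator lower, and medians of -0.37 for assembly factors, -0.83 for DNA expression and -0.66 for regulators. Voom with quality weights called 1063 higher and 1668 lower, with 16 members higher and 1 lower, 15 of these 17 members also called with BMDM 1 to 3; the lists had 1 other mitoribosome protein, 1 assembly factor (median -0.34), 2 translation factors, 1 synthetase, 3 DNA expression genes lower (median -0.68), 49 oxidative phosphorylation genes, 44 cytosolic ribosomal proteins with 2 lower, 3 regulators lower (median -0.61) and 1 cell cycle gene lower. With BMDM 1 to 3 there were 1028 higher and 1312 lower, 15 members higher and 1 lower, 2 other mitoribosome proteins, 2 assembly factors (median -0.22), 1 translation factor, 1 synthetase, 1 DNA expression gene lower, 52 oxidative phosphorylation genes, 45 cytosolic ribosomal proteins with 1 lower, and 3 regulators lower.

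Equal replicate numbers did not pair the samples by the rule used: their deviations correlated at 0.14, 0.09 and 0.24, although each library correlated best with its own number, a hint from the data and not from the design. The block also takes BMDM 4 and 5 out of the comparison, since no microglia library has their number, so it changes 2 choices at once. With the replicate block, 1449 genes were higher and 1774 lower, 19 members higher and 1 lower, with 2 other mitoribosome proteins, 2 assembly factors (median -0.35), 2 translation factors, 1 synthetase, 1 DNA expression gene lower (median -0.74), 1 mitochondrially encoded messenger RNA, 53 oxidative phosphorylation genes, 56 cytosolic ribosomal proteins with 2 lower, 4 regulators lower and 1 cell cycle gene lower.

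Leaving out 1 library at a time called 0 to 7 members higher (7 without BMDM 5) and 0 lower, and gave the members a median of 0.18 (without microglia 3) to 0.41 (without microglia 1); large-subunit medians ran from 0.22 to 0.44 and small-subunit medians from 0.09 to 0.41. Over all genes the calls ran from 58 to 536 higher and 46 to 602 lower, lowest without microglia 3 and highest without BMDM 5. Other lists without 1 library ran from 0 to 27 oxidative phosphorylation genes (median 0.88 to 1.20), 0 to 19 cytosolic ribosomal proteins (0.57 to 0.98), 0 to 1 synthetases (-0.02 to 0.17), 0 to 1 DNA expression genes lower (-0.58 to -0.23) and 0 to 2 regulators lower (-0.54 to -0.10). Medians ran from 0.11 to 0.61 for other mitoribosome proteins, -0.11 to 0.33 for assembly factors, -0.19 to 0.12 for translation factors, -0.34 to 0.20 for mitochondrially encoded messenger RNAs and -0.71 to -0.40 for the cell cycle list. The lowest member totals were 9578 counts (BMDM 4), 10152 counts (BMDM 5) and 10466 counts (microglia 3).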
